A study of Mus musculus with 9 samples.

Results

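Casein kinase 1 and casein kinase 2 are unrelated families of serine/threonine protein kinases that carry the same historical name. Their 9 mouse genes on these arrays are Csnk1a1, Csnk1d, Csnk1e, Csnk1g1, Csnk1g2 and Csnk1g3 for casein kinase 1, and Csnk2a1, Csnk2a2 and Csnk2b for casein kinase 2. All probes carrying one of these symbols, as annotated or after updating, were taken: 15 probes of 29922, for 9 of 16637 named genes. There were 10 probes for casein kinase 1 and 5 for casein kinase 2. The set was chosen by measured values: the Csnk1g2 probe had ratios of opposite sign at the 2 ages, so its values are a description and carry no test.

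There were 4 groups of 2 female mice, 8 mice in all: 3xTG mice aged 3 months, WT mice aged 3 months, 3xTG mice aged 12 months and WT mice aged 12 months. The 3xTG mice carry, among other changes, APP and tau transgenes (APPSwe and tauP201L in the strain label), a model used in Alzheimer disease research. The labels give the WT mice as 129SV with C57BL6, and they name no drug or other agent for any group. RNA of a single hippocampus, the brain structure that forms new memories, was linearly amplified, labelled with Cy5 or Cy3 and hybridised in pairs to 9 two-colour arrays, 3 for each of 3 comparisons. Arrays of a comparison share mice, and WT ageing (WT at 12 over WT at 3 months) shares its younger mice with the genotype comparison at 3 months and its older mice with that at 12 months. A p-value therefore measures the spread of few animals and of repeated hybridisations, and the comparisons are not independent.

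Casein kinase 1 acts as a single chain. The alpha form phosphorylates beta-catenin as part of the complex that marks it for destruction in Wnt signalling, the delta and epsilon forms phosphorylate the PER proteins and so set the speed of the circadian clock, and the gamma forms are tethered to the plasma membrane by a lipid anchor and phosphorylate the Wnt co-receptor LRP6. Casein kinase 2 is a tetramer of catalytic subunits, encoded by Csnk2a1 and Csnk2a2, around a regulatory dimer encoded by Csnk2b. In neurons its substrates include DARPP-32, and members of both families can phosphorylate tau, the protein that forms tangles in Alzheimer disease.

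The promoter windows of Csnk1g2 and Csnk1e are shown because these genes had the ratios of one sign on which the account below turns. Each window covers 300 bases around an annotated transcript start, most of them upstream, is written 5′ to 3′ on the gene's strand, and comes from RefSeq, assembly GRCm38.p6. Capitals mark letters of 3 motifs searched on both strands: the GC box (GGGCGG or CCGCCC), the cAMP response element or CRE (TGACGTCA) and the E-box (CACGTG). Csnk1g2 lies at chr10:80622676-80640771 on the plus strand and has windows at chr10:80622530-80622829 and chr10:80629406-80629705. The Csnk1e window is that at chr15:79442094-79442393 on the minus strand, within the gene's span of chr15:79417852-79455579.
Csnk1g2 first window: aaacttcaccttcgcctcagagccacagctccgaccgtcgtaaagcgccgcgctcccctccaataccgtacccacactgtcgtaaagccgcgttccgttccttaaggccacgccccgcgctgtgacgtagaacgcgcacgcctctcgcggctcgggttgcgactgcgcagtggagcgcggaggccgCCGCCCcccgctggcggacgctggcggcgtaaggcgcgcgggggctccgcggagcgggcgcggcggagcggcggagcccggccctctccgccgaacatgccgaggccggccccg
Csnk1g2 second window: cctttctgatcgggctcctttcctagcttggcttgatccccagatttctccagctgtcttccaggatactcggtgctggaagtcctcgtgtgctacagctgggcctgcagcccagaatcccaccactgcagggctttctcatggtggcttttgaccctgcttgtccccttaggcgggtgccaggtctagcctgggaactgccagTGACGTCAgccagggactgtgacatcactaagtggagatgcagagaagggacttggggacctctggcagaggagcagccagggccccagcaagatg
Csnk1e window: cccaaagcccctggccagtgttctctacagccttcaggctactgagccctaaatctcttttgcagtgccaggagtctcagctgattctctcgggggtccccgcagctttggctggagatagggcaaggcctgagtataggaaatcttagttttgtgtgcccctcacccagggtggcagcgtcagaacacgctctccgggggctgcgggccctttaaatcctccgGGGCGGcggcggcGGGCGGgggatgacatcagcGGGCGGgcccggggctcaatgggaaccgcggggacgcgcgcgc

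The first Csnk1g2 window held 1 GC box, 50 CpG dinucleotides and 73% G and C, against a median of 7 CpG and 52.7% over 32851 promoter windows. The second held 1 CRE and 5 CpG with 58.7% G and C. The Csnk1e window held 3 GC boxes, 21 CpG and 64.3% G and C. Among all windows 35.7% held a GC box, 1.79% a CRE and 7.15% an E-box. The 3 other Csnk1e windows overlap the printed one or each other and held 5, 6 and 6 GC boxes. None of the 12 windows of 6 member genes held an E-box, which says only that these letters are not in those windows. Windows on chromosome 18, where Csnk1a1 and Csnk1g3 lie, were left out, and Csnk1d had no window.

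Values are log2 ratios minus the median of all listed ratios on the same array, so 0 is the middle of the array and not equal amounts of RNA. The deposited table lists no ratio between -0.5 and 0.5, and array medians ran from -1.71 to 2.34 before centring. A second scale was set by 200 probes of abundant transcripts (ribosomal, respiratory, proteasomal and glycolytic genes). Relative to the array median, the median of these probes was -0.14, 1.52 and 0.57 on the arrays of 3xTG over WT at 3 months, 2.03, 2.06 and 1.09 at 12 months, and -0.40, -0.51 and -0.85 in WT ageing. Values as deposited and values relative to the abundant transcripts are therefore given beside the main means and counts whose direction they change. A value or count given alone is relative to the array median and may differ on the other scales. Ratios hold no level, so neither the tissue's markers nor the order of the kinases in abundance could be checked. The transgene-related genes were App, Thy1 and Mapt. At 3 months 3 of 3 probes, from 2 of these genes, lay above the array median, with a median of 2.81. At 12 months 4 of 4 probes, from all 3 genes, did so, with a median of 2.19. On the scale of abundant transcripts these counts were 3 of 3 and 3 of 4. Whether these mouse probes also read the human transgenes was not tested. In RNA of whole tissue, fewer cells of a type and less RNA per cell cannot be told apart.

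Of 135 possible casein kinase values, 73 were listed, or 54.1%, against 48.6% over all probes. The genotype comparison at 3 months had 20 of 45 values, that at 12 months 25 of 45 and WT ageing 28 of 45. A ratio on at least 2 arrays was available for 5, 8 and 10 probes of the 15 in these comparisons. No casein kinase probe was listed on all 9 arrays. The plot of the 15 probes by array shows both the values and the gaps.

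**Figure D1:**
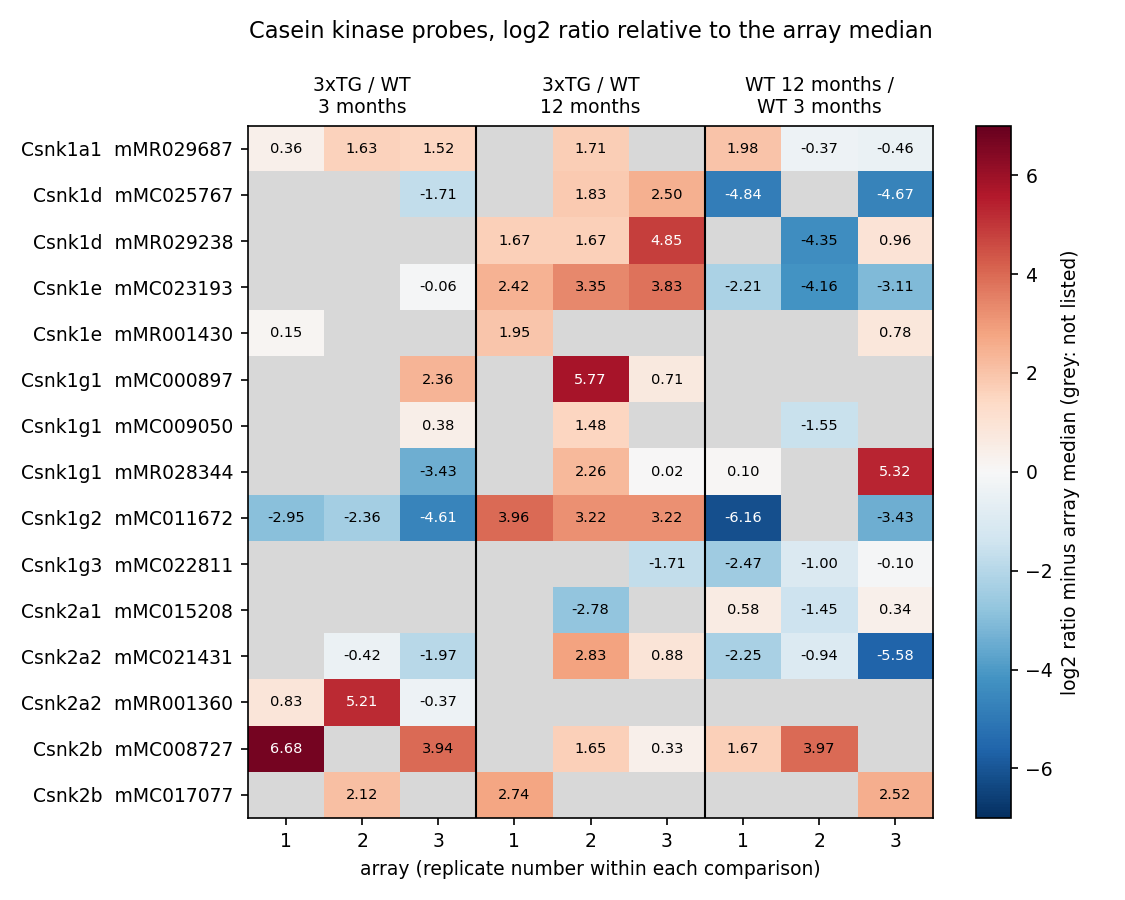
Log2 ratio relative to the array median for each of the 15 casein kinase probes (rows, gene and probe) on each of the 9 arrays (columns, 3 per comparison), with colour running from blue (below the median) to red (above it) and grey where no ratio was listed. The Csnk1g2 row is blue on all 3 arrays at 3 months and red on all 3 at 12 months, and the 12-month columns hold 2 listed values below 0 among 25.

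Csnk1g2 encodes a membrane-tethered gamma form of casein kinase 1. Its single probe had -2.95, -2.36 and -4.61 in 3xTG over WT mice at 3 months, and 3.96, 3.22 and 3.22 in 3xTG over WT mice at 12 months. Every array at 3 months thus lay below the array median and every array at 12 months above it, without overlap. In WT ageing it had -6.16 and -3.43 on the 2 arrays that listed it, both below the median.

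The means were -3.31 ± 1.16 at 3 months and 3.47 ± 0.43 at 12 months (SD, n = 3 arrays each), and -4.80 ± 1.93 in WT ageing (SD, n = 2 arrays). As deposited, without centring, they were -2.98, 2.32 and -3.11. Relative to the abundant transcripts they were -3.96, 1.74 and -4.17. The directions were thus the same on all 3 scales, while the 12-month mean fell from 3.47 on the first scale to 1.74 on the third. At each age the array with 3xTG RNA in Cy5 had the same sign as those with it in Cy3, with -4.61 at 3 months and 3.22 at 12 months. The arrays carry slide numbers in 2 ranges, and the sign was also the same in both: -2.95 in the lower range against -2.36 and -4.61 in the higher one at 3 months, and 3.96 against 3.22 and 3.22 at 12 months. All arrays of WT ageing fell in the lower range. Csnk1g2 was chosen by its signs at the 2 ages, so neither agreement is a test of dye or slide number.

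Probes with all 3 arrays below the median at 3 months and all 3 above it at 12 months made up 4.24% of those listed on all 6 arrays, or 27 of 637. Csnk1g2 was chosen by this pattern, so nothing is read from that share.

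Csnk1e encodes the epsilon form. Its probe mMC023193 had 2.42, 3.35 and 3.83 in 3xTG over WT mice at 12 months and a single value of -0.06 at 3 months. In WT ageing it had -2.21, -4.16 and -3.11. All 3 arrays were above the median at 12 months and all 3 below it in WT ageing. The means were 3.20 ± 0.71 and -3.16 ± 0.97 (SD, n = 3 arrays each). They were 2.05 and -1.26 as deposited, and 1.48 and -2.57 relative to the abundant transcripts, so both directions held on the 3 scales. With its single array at 3 months this probe did not meet the filter of the limma fit described below. Fitted without that filter, over 11895 probes, it had 3.36 ± 1.01 at 12 months and -2.95 ± 1.01 in WT ageing (SE), and neither passed (limma adjusted p = 0.534 and 0.628). The second Csnk1e probe, mMR001430, was listed once per comparison, at 0.15 at 3 months, 1.95 at 12 months and 0.78 in WT ageing, so the 2 probes had opposite signs in WT ageing. Its 12-month value was -0.08 relative to the abundant transcripts, and the single 3-month value of mMC023193 was 0.90 as deposited.

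Csnk1d encodes the delta form, the closest relative of epsilon. Its probe mMC025767 had -1.71 on 1 array at 3 months, 1.83 and 2.50 on 2 arrays at 12 months, and -4.84 and -4.67 on 2 arrays of WT ageing. The second probe, mMR029238, had 1.67, 1.67 and 4.85 at 12 months and was not listed at 3 months. Those 3 values were -0.36, -0.39 and 3.76 relative to the abundant transcripts. All 5 listed Csnk1d values at 12 months were above the array median. In WT ageing the second probe had -4.35 and 0.96, so its arrays disagreed where the first probe's did not, and its mean of -1.70 was 0.45 as deposited. The means of mMC025767 were 2.16 ± 0.47 at 12 months and -4.76 ± 0.12 in WT ageing (SD, n = 2 arrays each). Relative to the abundant transcripts its 12-month mean was 0.59, with 1 of the 2 arrays below 0. In the fit without the filter this probe had 2.16 ± 1.11 at 12 months and -4.84 ± 1.25 in WT ageing (SE), with limma adjusted p = 0.581 and 0.628.

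**Figure D2:**
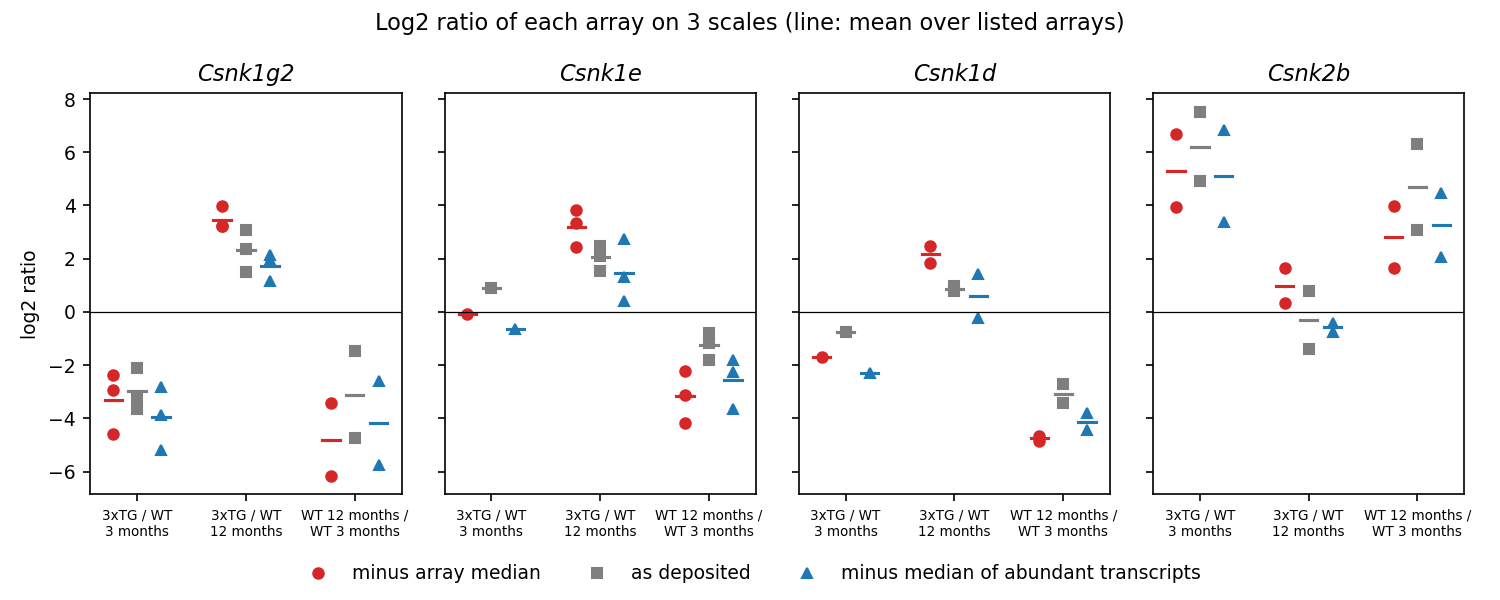
Log2 ratio of single arrays (points) and their mean (short lines) for 4 casein kinase probes in the 3 comparisons, on 3 scales: minus the array median (red circles), as deposited (grey squares) and minus the median of abundant transcripts (blue triangles). Csnk1g2 and Csnk1e keep their side of 0 on all 3 scales at 12 months and in WT ageing, whereas the 12-month mean of Csnk2b is 0.99 on the first scale and -0.30 and -0.58 on the others.

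Csnk1a1 encodes the alpha form. Its probe had 0.36, 1.63 and 1.52 in 3xTG over WT mice at 3 months, all above the median, with a mean of 1.17 ± 0.70 (SD, n = 3 arrays). It had 1.71 on the 1 array listing it at 12 months, and -0.35 there relative to the abundant transcripts. In WT ageing it had 1.98, -0.37 and -0.46, a mean of 0.38 ± 1.39 (SD, n = 3 arrays), which was smaller than the spread of the arrays. As deposited that mean was 2.285 ± 0.99, larger than the spread, and relative to the abundant transcripts 0.97 ± 1.23 (SD, n = 3 arrays each).

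The other gamma forms were listed on too few arrays to compare with Csnk1g2 at both ages. Csnk1g3 was not listed at 3 months. It had -2.47, -1.003 and -0.10 in WT ageing and -1.71 on 1 array at 12 months, where Csnk1g2 was above 3 on every array. As deposited, the Csnk1g3 mean in WT ageing was 0.71 in place of -1.19. Csnk1g1 has 3 probes, and none had more than 2 arrays in a comparison. They had 2.36, 0.38 and -3.43 on 1 array of the 3-month comparison, and at 12 months 5 listed values between 0.02 and 5.77. In WT ageing probe mMR028344 had 0.10 and 5.32, and probe mMC009050 had -1.55 on 1 array. The 3-month values, all from replicate 3, differ in sign between probes of the same gene. Probe mMR028344, with -3.43 at 3 months and with 2.26 and 0.02 at 12 months, had the order of signs of Csnk1g2, and the other 2 probes were above 0 at both ages. Its 12-month mean of 1.14 was -0.15 as deposited and -0.44 relative to the abundant transcripts. Probe mMC009050 had 0.38 and 1.48 at the 2 ages, and -0.19 and -0.58 relative to the abundant transcripts, while its WT ageing value of -1.55 was 0.79 as deposited.

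Csnk2b encodes the regulatory subunit of casein kinase 2. Its probe mMC008727 had 6.68 and 3.94 in 3xTG over WT mice at 3 months, 1.65 and 0.33 at 12 months, and 1.67 and 3.97 in WT ageing. All 6 listed values were above the array median. The means were 5.31 ± 1.94, 0.99 ± 0.93 and 2.82 ± 1.63 (SD, n = 2 arrays each). At 12 months the mean was -0.30 as deposited and -0.58 relative to the abundant transcripts, so its direction at that age depends on the scale. The second Csnk2b probe, mMC017077, had 2.12, 2.74 and 2.52, each on 1 array, and lay above 0 on all 3 scales in every comparison.

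Of the catalytic subunits, Csnk2a2 (alpha prime) had by its probe mMC021431 the values -0.42 and -1.97 in 3xTG over WT mice at 3 months. It had 2.83 and 0.88 in those at 12 months, and in WT ageing -2.25, -0.94 and -5.58. The listed arrays were thus below the median at 3 months, above it at 12 months and below it in WT ageing, the same order of signs as Csnk1g2 with smaller sizes at both ages. At 12 months the lower array was -0.83 as deposited and -0.21 relative to the abundant transcripts, the sign of the 3-month arrays, while the mean of 1.86 was 0.57 and 0.28. In WT ageing the array of -0.94 was 1.39 as deposited. Its other probe, mMR001360, was listed at 3 months alone, with 0.83, 5.21 and -0.37, and its mean of 1.89 ± 2.94 (SD, n = 3 arrays) was opposite in sign to the first probe's -1.19 ± 1.10 (SD, n = 2 arrays). Csnk2a1 (alpha) had 0.58, -1.45 and 0.34 in WT ageing, which averaged -0.17 ± 1.11 (SD, n = 3 arrays) and turned to 1.73 as deposited and 0.41 relative to the abundant transcripts. It had -2.78 on 1 array at 12 months. The 2 catalytic genes therefore differed in sign at 12 months, on 2 arrays for Csnk2a2 and 1 array for Csnk2a1.

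Of the 15 probes, 3 met the filter of the limma fit across all probes, which asks for at least 2 of 3 arrays in each comparison, namely those of Csnk1g2, Csnk2a2 (mMC021431) and Csnk2b (mMC008727). The filter admits probes by how often a ratio beyond 0.5 was listed, so these 3 do not stand for the family. No probe of 3644 passed an adjusted p of 0.05 in any of the 3 comparisons or the 2 contrasts derived from them, which is 0% called in each. At an unadjusted p under 0.05 there were 492 at 3 months, 607 at 12 months, 431 in WT ageing, 253 for the difference between the genotype effects and 205 for 3xTG at 12 over 3 months through WT.

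For Csnk2b the fitted log2 ratio was 5.31 ± 0.93 (SE) for 3xTG over WT at 3 months, with limma adjusted p = 0.242. It was 0.99 ± 0.93 (SE) at 12 months, with limma adjusted p = 0.637, and 2.82 ± 0.93 (SE) in WT ageing, with limma adjusted p = 0.328. Subtracting the younger from the older genotype effect gave -4.32 ± 1.32 (SE), with limma adjusted p = 0.712. None of these passed. The 3-month value alone passed, at adjusted p = 0.0491, when limma treated all arrays as independent, which they were not.

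For Csnk2a2 the fitted log2 ratios were -1.19 ± 1.71 (SE) at 3 months, 1.86 ± 1.48 (SE) at 12 months and -2.29 ± 1.44 (SE) in WT ageing, with limma adjusted p = 0.796, 0.563 and 0.654. The first 2 of them were within 1.5 SE of 0. For Csnk1g2 the fitted ratios were -3.65 ± 0.86, 3.16 ± 0.86 and -5.08 ± 0.95 (SE), given as a description. Without the first WT ageing array its WT ageing value was -4.13.

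**Figure D3:**
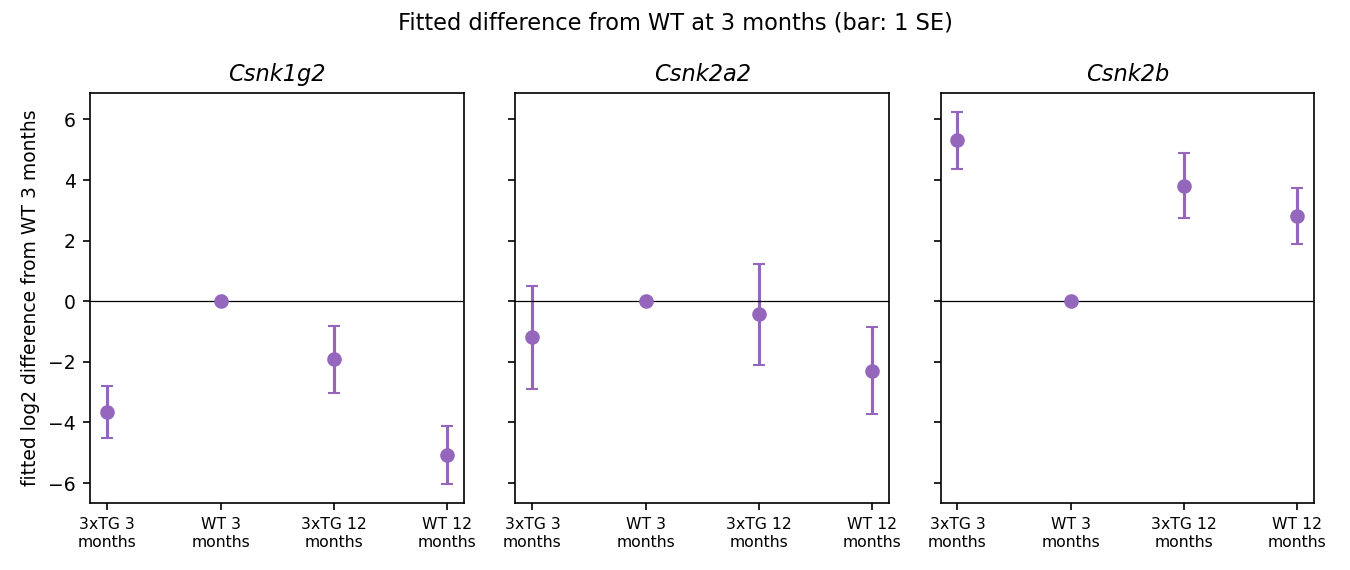
Fitted log2 difference of each group from WT mice at 3 months (set to 0) for the 3 casein kinase probes in the limma fit, with bars of 1 SE. Csnk1g2 lies below WT at 3 months in the other groups and lowest in WT at 12 months (-5.08), and Csnk2b lies above it and highest in 3xTG at 3 months (5.31). For Csnk2a2 the bars of the other groups overlap one another, while that of WT at 12 months (-2.29 ± 1.44) does not reach 0.

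Placed on one scale through the shared WT mice, Csnk1g2 was ordered, from low to high, as older WT (-5.08 ± 0.95), younger 3xTG (-3.65 ± 0.86), older 3xTG (-1.92 ± 1.11) and younger WT mice (0 by definition, with SE for the others). Younger 3xTG lay above older WT mice by 1.43 ± 1.06 (SE), and older above younger 3xTG mice by 1.73 ± 1.19 (SE), each under 1.5 SE. In this arrangement the older 3xTG mice lay above the older WT mice by 3.16 ± 0.86 (SE). Both estimates lay below WT at 3 months, that of the older 3xTG mice at -1.92 ± 1.11 (SE), and this gap was not tested.

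Csnk2b was ordered as younger WT (0), older WT (2.82 ± 0.93), older 3xTG (3.81 ± 1.07) and younger 3xTG mice (5.31 ± 0.93, SE in each case). The 12-month groups differed by 0.99 ± 0.93 (SE) and the 3xTG groups by -1.50 ± 1.20 (SE, 12 minus 3 months), each under 1.5 SE. For Csnk2a2 the widest gap was that between WT at 12 and at 3 months, -2.29 ± 1.44 (SE), which is under 2 SE.

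Over the casein kinases with a mean from at least 2 arrays, 8 of 8 probes lay above the array median in 3xTG over WT mice at 12 months, at 0.99 to 3.47 with a median of 2.45, against 52.4% and a median of 0.10 for all probes. They belong to 6 genes: Csnk1d, Csnk1e, Csnk1g1, Csnk1g2, Csnk2a2 and Csnk2b. Probes listed on 1 array do not enter this count. Of these, Csnk1g3 (-1.71) and Csnk2a1 (-2.78) lay below the median, and single probes of Csnk1a1, Csnk1e, Csnk1g1 and Csnk2b above it. Without Csnk1g2 there were 7 of 7 with a median of 2.16. As deposited, and likewise relative to the abundant transcripts, 6 of 8 lay above 0, with medians of 1.23 and 0.80, against 32.0% and 22.2% of all probes. Probes with all 3 arrays above the median were 3 of 3 among the casein kinases (Csnk1d, Csnk1e and Csnk1g2), and 29.7% of all probes listed on all 3 arrays. The count was 2 of 3, without Csnk1d, relative to the abundant transcripts, against 12.9% of all probes. A count of 3 probes, one of which the choice of the family used, does not set the family apart.

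At 3 months 3 of 5 probe means lay above 0, with a median of 1.17, against 47.9% of all probes and a median of -0.08. Of 3 probes listed on all arrays, Csnk1a1 was above the median on each, as were 30.9% of all probes, and Csnk1g2 below it on each, as were 20.8%. In WT ageing 3 of 10 lay above 0 and 7 below, with a median of -1.45, against 51.0% above and a median of 0.04 for all probes. Of 5 probes listed on all arrays, 3 were below the median on each (Csnk1e, Csnk1g3 and Csnk2a2), against 22.2% of all probes. That count was 1 of 5 as deposited (Csnk1e), against 9.23% of all probes. Relative to the abundant transcripts it was 2 of 5 (Csnk1e and Csnk2a2), against 14.4% of all probes. As deposited, 6 of 10 means in WT ageing lay above 0, against 85.3% of all probes.

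**Figure D4:**
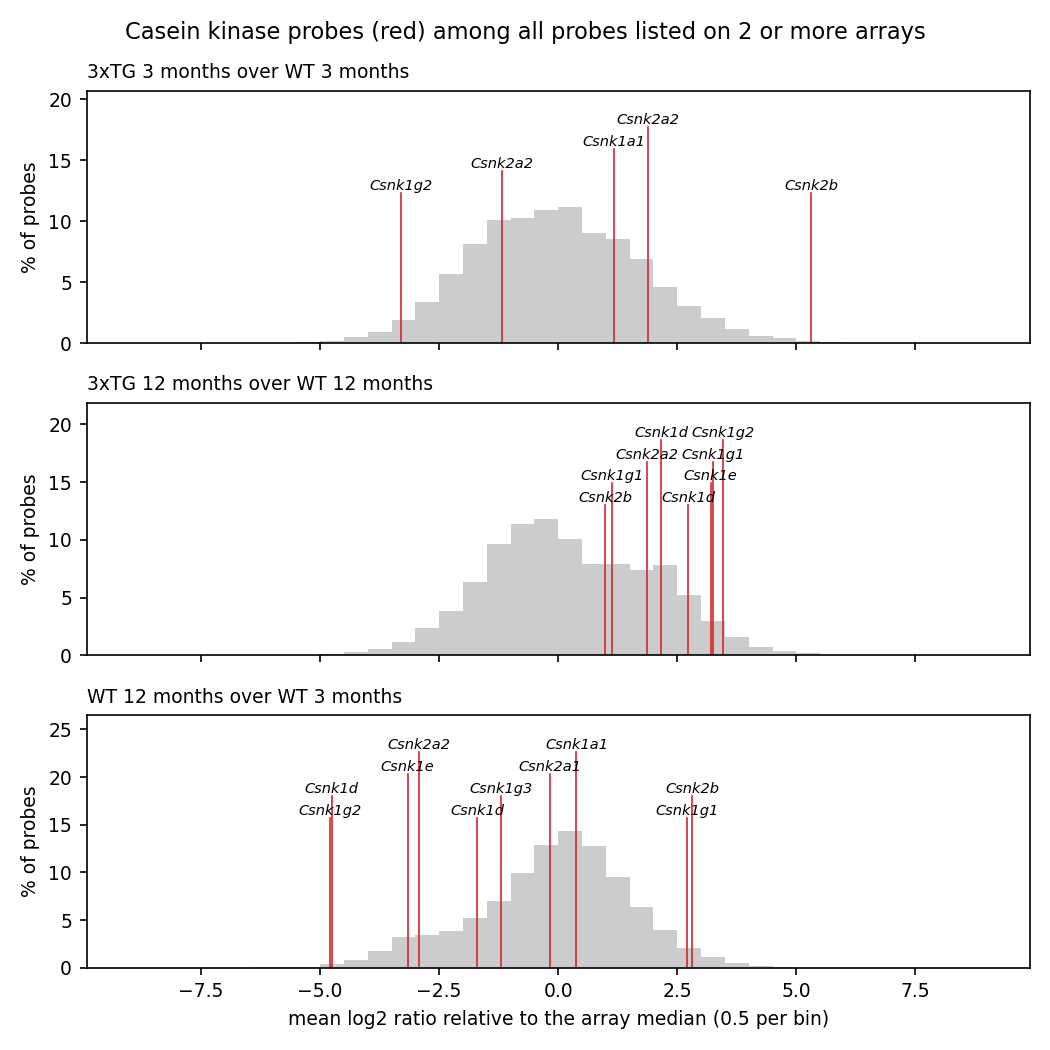
Distribution of the mean log2 ratio relative to the array median over all probes listed on at least 2 arrays of a comparison (grey bars, percent of probes per bin of 0.5), with the casein kinase probes as red lines, whose height only spaces the names. At 12 months all 8 lines lie right of 0, from 0.99 to 3.47, and in WT ageing 7 of 10 lie left of it. Probes listed on 1 array, among them Csnk1g3 and Csnk2a1 below 0 at 12 months, are not drawn.

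The tau tubulin kinases and the VRK kinases belong to the same kinase group as casein kinase 1, and of these the fit held only Ttbk1 and Ttbk2. Ttbk1, a neuronal tau kinase, had fitted ratios of -2.48 ± 1.05 at 3 months, 1.37 ± 1.08 at 12 months and -3.33 ± 1.20 in WT ageing (SE), with limma adjusted p = 0.379, 0.560 and 0.346. Relative to the abundant transcripts its 12-month value was -0.20. Ttbk2, which is needed to build primary cilia, had 3.88 ± 0.98, 2.82 ± 1.08 and 1.37 ± 0.98 (SE), with limma adjusted p = 0.245, 0.268 and 0.699. Neither gene passed in any comparison.

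Of the 22 listed partners and substrates of casein kinase 2, 17 were on the array and 5 entered the fit with 6 probes. Their fitted values at 12 months were above 0 for 6 of 6 probes, with a median of 1.61, against 2183 of 3644 fitted probes with a median of 0.58. Of the 6, 0 passed limma's adjusted threshold or an unadjusted p under 0.05. The smallest p belonged to Xrcc1, a DNA repair scaffold phosphorylated by casein kinase 2, at 2.22 ± 1.07 (SE, limma adjusted p = 0.341). At 3 months it was Npm1, the nucleolar chaperone nucleophosmin, at 4.03 ± 1.22 (SE, limma adjusted p = 0.269), and in WT ageing Ptges3, the HSP90 co-chaperone p23, at -3.70 ± 0.96 (SE, limma adjusted p = 0.276). By means over at least 2 arrays, 16 of 19 probes of the list lay above 0 at 12 months, with a median of 1.01. All probes had 52.4% above 0 and a median of 0.10. As deposited the list had 8 of 19 with a median of -0.28, against 32.0% and -1.06 for all probes. Relative to the abundant transcripts it had 7 of 19 with a median of -0.56, against 22.2% and -1.59. The side of 0 thus depends on the scale, while the list median lay above that of all probes on each scale. That gap was not tested.

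Of the clock genes, targets or partners of casein kinase 1 delta and epsilon, 12 of 14 were on the array and 4 entered the fit with 5 probes, and 0 passed limma's adjusted threshold in any comparison. At 12 months 2 of the 5 had an unadjusted p under 0.05, as did 607 of the 3644 fitted probes. Both were probes of Clock, the core activator of the circadian loop. Its probe mMR026549 had 4.15 ± 1.07 (SE, limma adjusted p = 0.258), while its probe mMC022282 had -2.52 ± 1.01 (SE, limma adjusted p = 0.281), so the 2 probes of this gene disagreed in sign. Means of clock probes lay above 0 for 5 of 8 at 3 months, 5 of 9 at 12 months and 6 of 10 in WT ageing. Those counts were 6, 4 and 10 as deposited, and 5, 2 and 7 relative to the abundant transcripts. Of all probes, 47.9%, 52.4% and 51.0% lay above 0 in these comparisons. The shares were 54.3%, 32.0% and 85.3% as deposited, and 34.7%, 22.2% and 65.9% relative to the abundant transcripts.

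For the other lists, means over at least 2 arrays are given as counts above 0 at 3 months, at 12 months and in WT ageing. Wnt and beta-catenin genes, among them the scaffold and receptor partners of Csnk1a1 and the gamma forms, had 5 of 8, 9 of 16 and 4 of 15 probes above 0, with medians of 0.36, 0.29 and -0.63. Their counts were 5, 5 and 12 as deposited, with medians of 0.97, -0.999 and 1.19. They were 4, 4 and 7 relative to the abundant transcripts, with medians of -0.08, -1.44 and -0.004, so no side of 0 held on all 3 scales. The medians of all probes were -0.08, 0.10 and 0.04. They were 0.17, -1.06 and 1.95 as deposited, and -0.79, -1.59 and 0.62 relative to the abundant transcripts. On each scale the Wnt list median lay above that of all probes at both ages and below it in WT ageing. These gaps were not tested. Hedgehog genes, another pathway with casein kinase 1 targets, had 2 of 9, 0 of 5 and 2 of 5, and on the other scales 0 of 5 at 12 months again, but 5 of 5 and 4 of 5 in WT ageing. Other kinases and the phosphatase that act on tau had 6 of 13, 6 of 8 and 2 of 13, with medians of -0.05, 1.90 and -1.77. Relative to the abundant transcripts their 12-month count was 4 of 8 with a median of 0.10, and as deposited their WT ageing count was 6 of 13 with a median of -0.06. Genes of dopamine and DARPP-32 signalling had 3 of 5, 8 of 8 and 4 of 5. Their 12-month median of 2.21 was 1.09 as deposited (6 of 8 above 0) and 0.57 relative to the abundant transcripts (5 of 8). The FAM83 anchors of casein kinase 1 had 0 of 2, 1 of 4 and 3 of 4, and as deposited 1 of 2, 0 of 4 and 4 of 4.

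The limma fit held few of these probes: 2 of the Wnt list, 2 of the tau list and 1 each of the Hedgehog, DARPP-32 and FAM83 lists. Of them, 0 passed the adjusted threshold in any comparison. At an unadjusted p under 0.05 there was the 1 DARPP-32 probe, at 12 months, where 607 of 3644 fitted probes were under that value, and 0 for the other lists in each comparison.

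Markers of cell types were counted beside the casein kinases in the same way, and 0 of their fitted probes passed limma's adjusted threshold in any comparison. At 12 months 607 of 3644 fitted probes had an unadjusted p under 0.05. Among the markers these were 2 of 3 pyramidal cell, 1 of 1 choroid plexus, 1 of 2 astrocyte and 1 of 2 oligodendrocyte probes. Every other list and comparison had at most 1. At 12 months, where 8 of 8 casein kinase means lay above 0, so did 3 of 3 pyramidal cell, 3 of 3 interneuron and 4 of 4 astrocyte probes, with medians of 3.02, 1.95 and 1.98. The other types had 3 of 7 (general neuronal), 1 of 2 (dentate granule cell), 1 of 3 (oligodendrocyte), 2 of 4 (microglial), 2 of 3 (endothelial), 2 of 3 (choroid plexus) and 0 of 1 (blood). Relative to the abundant transcripts the pyramidal cell count was again 3 of 3, the interneuron count 1 of 3 and the astrocyte count 2 of 4, and astrocytes were also 2 of 4 as deposited. The endothelial count was 0 of 3 on both of the other scales. The choroid plexus count was 1 of 3 relative to the abundant transcripts.

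In WT ageing, where 7 of 10 casein kinase means lay below 0, 0 of 5 oligodendrocyte, 0 of 3 interneuron and 0 of 3 choroid plexus probes were above 0, with medians of -1.14, -0.24 and -1.34. Above 0 were 4 of 7 pyramidal cell, 3 of 6 astrocyte, 3 of 4 general neuronal, 3 of 3 dentate granule cell, 4 of 5 microglial and 1 of 2 endothelial probes. As deposited the oligodendrocyte, interneuron and choroid plexus counts were 3 of 5, 2 of 3 and 2 of 3, and relative to the abundant transcripts 0 of 5, 2 of 3 and 1 of 3. At 3 months 4 of 5 pyramidal cell probes were above 0 on each scale. The other types had 4 of 7 (general neuronal), 2 of 4 (dentate granule cell), 0 of 2 (interneuron), 3 of 5 (astrocyte), 2 of 3 (oligodendrocyte), 3 of 3 (microglial), 0 of 1 (endothelial) and 3 of 3 (choroid plexus). Relative to the abundant transcripts the microglial count was 2 of 3 and the choroid plexus count 1 of 3, and as deposited the interneuron count was 1 of 2. The part of these cell types, and of the abundant transcripts, in the casein kinase values was not tested.

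The pattern of Csnk1g2 was compared with that of 197 probes listed on the same 8 arrays, 157 of them named. By Pearson's r of centred ratios the most similar were Mgst3 (0.961), Neurod2 (0.944), Itpk1 (0.944), Ccpg1 (0.938) and Ip6k1 (0.932), and the least similar Desi2 (-0.949), Skp1 (-0.933) and Rit2 (-0.922). Mgst3 is a microsomal glutathione transferase, Neurod2 a neuronal transcription factor, and Itpk1 and Ip6k1 are inositol phosphate kinases. Ip6k1 averaged -1.26 at 3 months, 3.17 at 12 months and -4.76 in WT ageing over the arrays that listed it. The 8 arrays share mice, array medians and, for Csnk1g2, a gap between the 3 arrays at 12 months and the 5 others, so r mostly measures that gap and is given as a description.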

How the data were processed

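The values are log2 ratios of test over reference, as deposited by the authors for 29922 probes on 9 two-colour arrays; the base and direction were read from the values and the labels. The sources used here do not give the background correction, normalization or filtering behind them, and signal over background is unknown. No listed value lay between -0.5 and 0.5, so a gap can be a small ratio. Probe symbols came from the platform annotation (21020 probes with 1 symbol, 8902 with none), with 2728 symbols updated through RefSeq synonyms (GRCm38.p6).

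Each array was centred on the median of its listed ratios. Probes listed on at least 2 of 3 arrays per comparison (3696, of which 3644 could be fitted) were fitted with limma 3.58.1 (R 4.3.3). The generalised least squares model had one coefficient per comparison, a dye term and a covariance from shared mice (between-mouse over between-array variance 1.02, by restricted maximum likelihood on the 142 probes listed on all arrays). Moderated p-values were adjusted by Benjamini-Hochberg over all fitted probes, at 0.05. Precision is limited by the number of arrays.

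The casein kinases and all gene lists were chosen with earlier results of these data known. Named are every casein kinase probe, up to 4 genes of smallest p per list, and the 5 genes most and 3 least like Csnk1g2. The second Clock probe is named under the same rule. Alternatives covered centring, covariance, dye term, slide run, replicate block, filter, gene means and leaving out each array. One allele in the strain label is not reported here.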

Additional observations from a re-analysis of the deposited data

Results flagged for a closer look

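The genotype effect on the Csnk1g2 probe mMC011672 was opposite at the 2 ages on every array: the mean at 12 months minus that at 3 months was 6.77 on the log2 scale, and the fitted difference 6.81 ± 1.21 (SE). This contrast chose the gene, so the difference was not tested. Csnk2a2 probe mMC021431 also had opposite signs on every listed array, 2 at 12 months and 2 at 3 months, with a difference of 3.05 ± 2.26 (SE), which did not pass limma (adjusted p = 0.838). That holds relative to the array median: its lower 12-month array was -0.83 as deposited and -0.21 relative to the abundant transcripts. The second Csnk2a2 probe was listed at 3 months alone and had a mean of the opposite sign there.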

How the results depend on the processing

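No probe passed in any contrast in the reported fit, nor without centring, with abundant-transcript centring, without the dye term, with the slide run as a block, without the filter, on gene means or without any single array (lowest and highest count 0). With arrays treated as independent, limma called 66 probes in WT ageing and 56 in 3xTG over WT at 3 months. Testing only the 142 probes listed on all arrays, none of them a casein kinase, gave 21, 60 and 74 calls in WT ageing, at 3 and at 12 months. The replicate block gave 0 calls in all 5 contrasts, and same-numbered arrays correlated at -0.08 to 0.24 (deviations over 142 probes), so the numbers were not taken to pair arrays. Casein kinase means above 0 in WT ageing were 6 of 10 without centring, and 2 to 5 when each of its arrays was left out, an alternative chosen after seeing the data; 5 was without replicate 2. Signs reversed for values that passed no test, and the cause was not tested. Csnk2a2 at 3 months was 0.22 on gene means and -2.45 to 0.0663 when single arrays were left out. Csnk2a2 in 3xTG at 12 over 3 months was -0.71 on gene means and -0.46 to 2.10 without single arrays. Csnk2b at 12 months was -0.30 without centring and -0.58 on the abundant transcripts, where Ttbk1 was -0.20. Clock probe mMR026549 at 3 months ran over -0.35 to 2.05 without single arrays. Csnk1g2 kept its direction in each fit that held it. Its fitted difference between the ages was 5.04 without centring, 5.59 on abundant transcripts and 6.11 to 7.25 without single arrays. That difference chose the gene, so these values are a description and lend it no support.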
